A study of Mus musculus with 18 samples.

Results

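mmu-miR-19a-3p and mmu-miR-19b-3p (here miR-19a-3p and miR-19b-3p, together miR-19) and the RNAs ligated to them were described in cultured mouse keratinocytes, the main cells of the epidermis. The members were all deposited chimeric reads whose miRNA name was one of these 2, out of 1797 miRNA names. They gave 13520 of 1153545 chimeric reads (1.17%), 3410 for mmu-miR-19a-3p and 10110 for mmu-miR-19b-3p. Counted once per pool for each combination of target position, strand and miRNA, here called a chimera, they gave 12416 of 941862 (1.32%). In the assay, CLEAR-CLIP, cells are irradiated with UV light, Argonaute 2 is precipitated, and the miRNA held by the protein is ligated to the RNA beside it, so that 1 read holds both the miRNA and its target.

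The study held 18 libraries in 2 sets, each from 1 dish of confluent cells in low-calcium medium. Set 1 held 6 libraries of control cells that carried only K14-Cre, a recombinase under the keratin 14 promoter of basal keratinocytes, and 3 libraries of miR-200 double knockout (DKO) cells. Set 2 held 3 libraries of cells with an inducible miR-200 construct that were left uninduced, which served as its control, 3 libraries of miR-200 DKO cells, and 3 libraries of the same inducible cells after 24 hours in 3 ug/ml doxycycline. The uninduced cells thus carried the construct as well, and they were not the same kind of control as the K14-Cre cells. The libraries of a group were deposited as 1 pool with no library names, so each group was 1 sample. No test between groups was possible, and all intervals given here are exact 95% intervals that cover counting error only. The sets were sequenced in different runs, so set and run cannot be told apart, and ratios were taken within a set.

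miR-19a and miR-19b-1 are processed from the same primary transcript as miR-17, miR-18a, miR-20a and miR-92a, the miR-17-92 cluster, which is known for promoting proliferation and survival. A second copy of miR-19b lies in the related miR-106a-363 cluster on the X chromosome. miRNAs guide Argonaute to target RNAs chiefly through the seed, bases 2 to 8, and commonly lower the stability and translation of a messenger RNA bound in its 3′ untranslated region.

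The mature sequences are shown because the members differ in so little, with the seed in capitals; they are those of RefSeq (build GRCm38.p6).
miR-19a-3p: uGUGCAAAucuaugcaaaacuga
miR-19b-3p: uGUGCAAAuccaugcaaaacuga
Both are 23 bases long and differ at 1 base outside the seed, U11C from miR-19a to miR-19b, counted from the 5′ end. miR-19a-3p lies at chr14:115044048-115044070 on the plus strand. miR-19b-3p lies at chr14:115044358-115044380 on the plus strand and at chrX:52741991-52742013 on the minus strand, and a chimera cannot show which copy it came from. The sources used here do not say how the authors' mapping treated miRNAs that differ by 1 base, so the sum of the members is firmer than their division.

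The pools held 48662 to 419117 chimeric reads. The 3 keratinocyte miRNAs of the marker list (miR-205-5p, miR-203-3p and miR-31-5p) summed to 7.26% to 15.0% of a pool's reads and the 8 miRNAs of fibroblasts, blood, endothelium and melanocytes to 0.0185% to 0.0477%. Of the 8 marker genes of those cells, Col1a1, Col1a2, Col3a1, Ptprc and Dct had no chimera in any pool and the whole list had 1 to 5 per pool, against 115 to 780 on Krt5, Krt14, Krt6a, Trp63 and Itga6. Chimeras of all other miRNAs on Ddx3y, a gene of the Y chromosome chosen after its values were seen, numbered 14 in the set 1 control, 0 in the set 1 DKO, 79 in the uninduced, 2 in the set 2 DKO and 136 in the induced pool. Reads that recurred with identical position, miRNA and barcode in a second pool of their set made up 4.72% to 13.1% of a pool's miR-19 reads; results are given without them where a call changes. The DKO and control cells of a set also differed in chimeras on Ddx3y, and the part of that difference in the DKO comparisons was not tested.

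miR-19 held a higher share of chimeric reads in the set 2 pools than in the set 1 pools, by a gap that depended on the total used. The share was 0.511% (0.477 to 0.547; 826 reads) in the set 1 control pool and 0.658% (0.588 to 0.733; 320 reads) in the set 1 DKO pool. In set 2 it was 1.25% (1.21 to 1.29; 3916 reads) in the uninduced pool, 1.31% (1.26 to 1.36; 2755 reads) in the DKO pool and 1.36% (1.33 to 1.40; 5703 reads) in the induced pool. The intervals of neighbouring set 2 pools overlapped, and those of the uninduced and induced pools did not. When 9 miRNAs that were overrepresented in set 1, led by miR-709, were left out of the totals, the shares were 0.814% and 0.909% in the set 1 control and DKO pools and 1.29%, 1.36% and 1.41% in the uninduced, DKO and induced pools, so the sets lay closer together. Among all miRNAs of a pool, miR-19b-3p ranked between 21 (set 2 DKO) and 43 (set 1 control), and miR-19a-3p between 57 (uninduced and induced) and 102 (set 1 DKO).

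The ratio of the miR-19 shares was 1.29 (1.13 to 1.47) for DKO over control in set 1, 1.05 (1.00 to 1.10) for DKO over uninduced in set 2 and 1.09 (1.05 to 1.14) for induced over uninduced. The set 2 comparisons share the uninduced pool. By the same rule, an interval above 1 with at least 20 reads in the compared pools, 14.9% of 562 miRNAs were higher in the set 1 comparison, 28.6% of 371 in the set 2 DKO comparison and 8.08% of 421 in the induced comparison; 20.1%, 25.3% and 10.5% were lower. The set 1 ratio was 1.12 (0.979 to 1.27) when those 9 miRNAs were left out of the totals. The set 2 DKO ratio was 0.985 (0.938 to 1.03) when the miR-200 family was left out of the totals 1.01 (0.956 to 1.06) when each position was counted once, and 1.05 (0.997 to 1.10) without the reads shared between pools; its lower bound lay just above 1 only with all reads and totals kept, without marked read names or without the 9 miRNAs.

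The members moved unequally in the DKO comparisons. miR-19b-3p held 0.372% and 0.540% of reads in the set 1 control and DKO pools (ratio 1.45, 1.25 to 1.68), and 0.903%, 1.03% and 1.02% in the uninduced, DKO and induced pools. Its set 2 ratios over uninduced were 1.14 (1.07 to 1.20) for DKO and 1.13 (1.07 to 1.18) for induced. miR-19a-3p held 0.139% and 0.117% in set 1 (0.842, 0.618 to 1.13), and 0.344%, 0.286% and 0.345% in set 2. Its set 2 ratios were 0.831 (0.751 to 0.920) for DKO and 1.00 (0.926 to 1.09) for induced. miR-19a therefore made up 27.2% (24.2 to 30.4) of miR-19 reads in the set 1 control and 17.8% (13.8 to 22.5) in the set 1 DKO pool. In set 2 its part was 27.6% (26.2 to 29.0) in the uninduced, 21.8% (20.3 to 23.4) in the DKO and 25.4% (24.2 to 26.5) in the induced pool. The intervals of DKO and control did not overlap in either set.

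**Figure D1:**
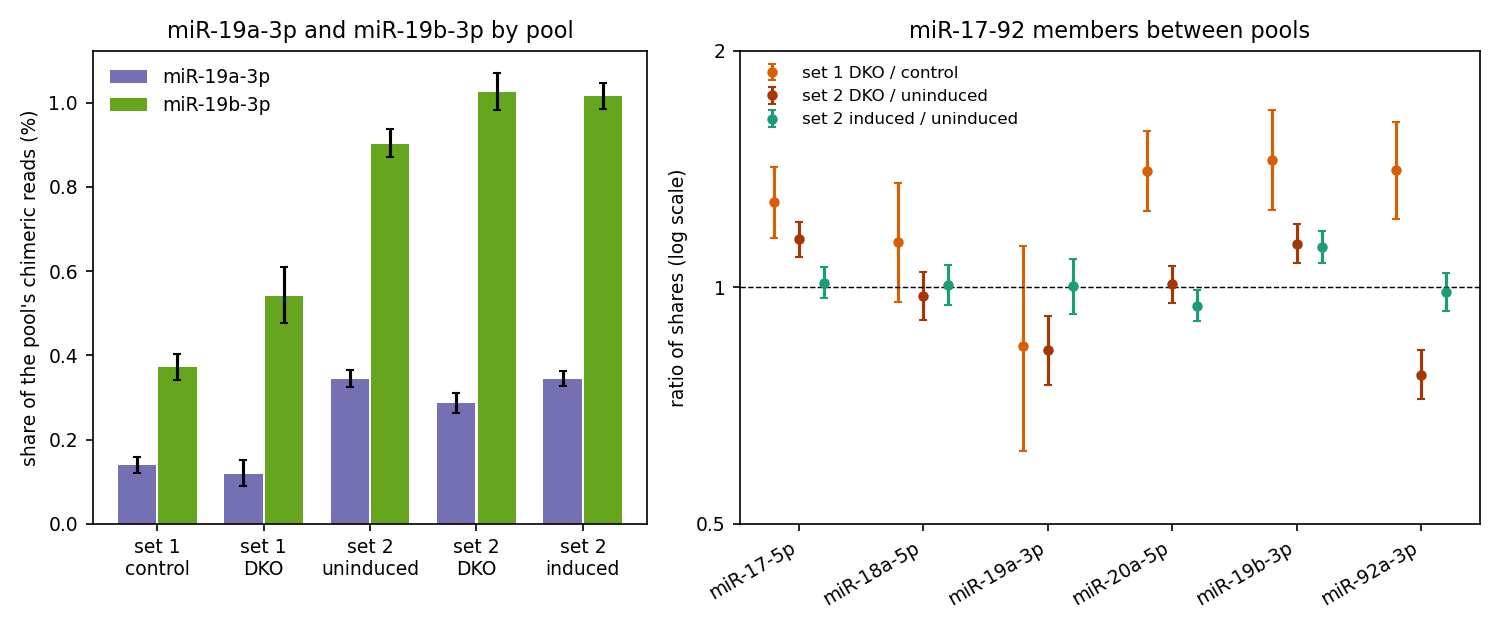
Left, share of each pool's chimeric reads (percent, axis from 0) held by miR-19a-3p and miR-19b-3p, with exact 95% counting intervals as error bars. Right, ratio of shares (log scale) of the 6 miR-17-92 members in the 3 comparisons with conditional exact 95% intervals; in both DKO comparisons miR-19b-3p lies above 1 and miR-19a-3p below it, with the set 1 interval of miR-19a-3p reaching past 1.

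The other products of the cluster did not share one course. In set 1, miR-17-5p (1.28, 1.16 to 1.42), miR-20a-5p (1.41, 1.25 to 1.58) and miR-92a-3p (1.41, 1.22 to 1.62) held larger shares in DKO than in control, as miR-19b-3p did, and the interval of miR-18a-5p (1.14, 0.957 to 1.36) included 1. In the set 2 DKO pool miR-17-5p was higher (1.15, 1.09 to 1.21), miR-92a-3p was lower (0.774, 0.720 to 0.832), and the intervals of miR-18a-5p (0.975) and miR-20a-5p (1.01) included 1. In the induced pool miR-20a-5p was lower (0.947, 0.905 to 0.991), miR-17-5p, miR-18a-5p and miR-92a-3p lay between 0.986 and 1.01 with intervals that included 1, and miR-19b-3p was the 1 member above 1 with its whole interval. The passenger strands of miR-19 (miR-19a-5p, miR-19b-1-5p and miR-19b-2-5p) together held between 0.00411% and 0.0235% of reads.

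Most miR-19 chimeras fell on messenger RNA genes. Of the 12416 chimeras, 90.0% (89.5 to 90.6) lay in a protein-coding gene, 2.69% in a noncoding RNA gene, 3.93% between genes, 1.30% in structured RNA, 1.06% in mitochondrial RNA and 0.564% in miRNA genes. For all other miRNAs the part in protein-coding genes was 85.5% (85.4 to 85.6), in mitochondrial RNA 2.90% and in structured RNA 2.01%. In the 8620 miR-19 chimeras on genes whose strand the reference gives, 98.4% were on the gene's own strand. Of those on protein-coding genes with a listed strand, 37.1% (36.1 to 38.1) lay in the last 10% of the gene span, where 3′ untranslated regions usually lie, against 26.6% (26.5 to 26.7) for all other miRNAs. By pool the miR-19 part in the last 10% was 31.9% and 30.3% in the set 1 control and DKO pools and 39.7%, 30.9% and 39.3% in the uninduced, DKO and induced pools. The other miRNAs had 18.2%, 25.4%, 28.6%, 25.3% and 28.9% in the same order, below miR-19 in every pool. Among 93 miRNAs with at least 1000 such chimeras, miR-19a-3p ranked 11 and miR-19b-3p ranked 13 by this part. The leading ones were miR-25-3p (52.4%) and miR-92a-3p (44.7%). The 9 miRNAs overrepresented in set 1 held ranks 85 to 93, at 2.56% to 7.35%. They count among the other miRNAs above and lower the part of those, more so in set 1. The comparison was not repeated without them. Exons and untranslated regions were not analysed here.

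No genome of the build was used, so that seed matches could be searched only where a target lay wholly inside the RefSeq promoter windows (300 bases, from 250 before a gene's start to 50 after it). Of 46 such miR-19 targets, 3 (6.52%, 1.37 to 17.9) held TTTGCAC, the match to the seed, on the strand of the target. Among targets of all other miRNAs in the windows 13 of 2758 (0.471%, 0.251 to 0.805) held it, and 3.18% of all 32851 windows held it on either strand. For the shorter match to bases 2 to 7, TTGCAC, the counts were 4 of 46 and 21 of 2758. The 3 are printed to show the matching letters in a miR-19 target, in capitals. Each is up to 30 bases of the target around the match, and each was seen in 1 pool.
Dusp6 window, chr10:99263046-99263075, plus strand, with miR-19a-3p: cagcttgTTTGCACtggggcttatccggag
Mindy3 window, chr2:12419611-12419638, plus strand, with miR-19b-3p: actattgactTTTGCACtgccctaccag
LOC115488002 window, chr12:18648837-18648866, plus strand, with miR-19b-3p: gtggtaaagctTTTGCACgtcacagttatc
All 3 targets were assigned to no gene span. A match is a description of the letters and not evidence of regulation. Letters beyond the target part of the read were not searched, and pairing was not measured.

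The targets were spread over many genes. With at least 1 chimera, miR-19 touched 3827 named genes over the 5 pools, 1936 had at least 2, and 48 had at least 20. By pool 96, 38, 614, 422 and 912 genes had at least 2 chimeras (set 1 control and DKO, uninduced, set 2 DKO, induced), in the order of the pools' depth, and the 10 leading genes of a pool took 6.14% to 12.9% of its miR-19 chimeras. A count of 0 in a pool allows a share of up to 0.506%, 1.28%, 0.102%, 0.144% and 0.0706% of miR-19 chimeras in the same order, so that absence in set 1 says little.

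Igfbp3, which encodes a secreted protein that binds insulin-like growth factors, led the targets with 152 miR-19 chimeras. They numbered 32 in the set 1 control, 4 in the set 1 DKO, 31 in the uninduced, 54 in the set 2 DKO and 31 in the induced pool. These are 4.40%, 1.39%, 0.856%, 2.11% and 0.593% of the pools' miR-19 chimeras. The set 1 control and the set 2 DKO were the high pools, so DKO lay below control in one set and above it in the other. Neat1, a long noncoding RNA of nuclear paraspeckles, came second with 151 chimeras (8, 3, 50, 22 and 68). Sdc1, the cell-surface proteoglycan syndecan-1, had 107 (4, 1, 37, 10 and 55), and F3, tissue factor, which starts blood coagulation, had 70 (3, 0, 12, 6 and 49).

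These leaders differed in how far miR-19 dominated them. On Neat1 other miRNAs made 12064 chimeras, and the miR-19 part of 1.24% (1.05 to 1.45) was close to the 1.37% over all named genes. On Igfbp3 the miR-19 part was 33.8% (29.4 to 38.4) of 450 chimeras, on F3 17.5% (13.9 to 21.6) of 400 and on Sdc1 9.02% (7.45 to 10.8) of 1186. Igfbp3 kept a similar part in each pool, at 31.4%, 26.7%, 39.2%, 30.9% and 39.2%, with overlapping intervals.

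Among the 48 genes with at least 20 miR-19 chimeras the part ranged from 0.646% to 36.4%, with a median of 4.47%, and 14 lay at 10% or more. The highest was Tnfrsf12a, the receptor of the cytokine TWEAK, with 36.4% (27.8 to 45.8) and pool counts of 1, 3, 13, 8 and 18. Igfbp3 came next, followed by Slc6a8, the creatine transporter (29.1%, 20.8 to 38.5; 1, 0, 11, 6 and 14), and Epgn, the EGF receptor ligand epigen (27.0%, 18.6 to 36.8; 0, 2, 5, 3 and 17). Arpc1a, a subunit of the actin-branching Arp2/3 complex, had 22.9% (35 chimeras) and Vps37a, a subunit of the endosomal sorting complex ESCRT-I, 22.2% (43 chimeras). Rhob, a small GTPase of the cytoskeleton and endosomes, had 18.9% (36 chimeras), Fam162a 18.1% (33 chimeras), and Rnf111, a ubiquitin ligase that acts in TGF-beta signalling, 16.3% (40 chimeras). Rhob and Fam162a had no miR-19 chimera in set 1, where other miRNAs made 7 and 17 chimeras on them in the control pool and 2 and 4 in the DKO pool, so depth limits that comparison.

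**Figure D2:**
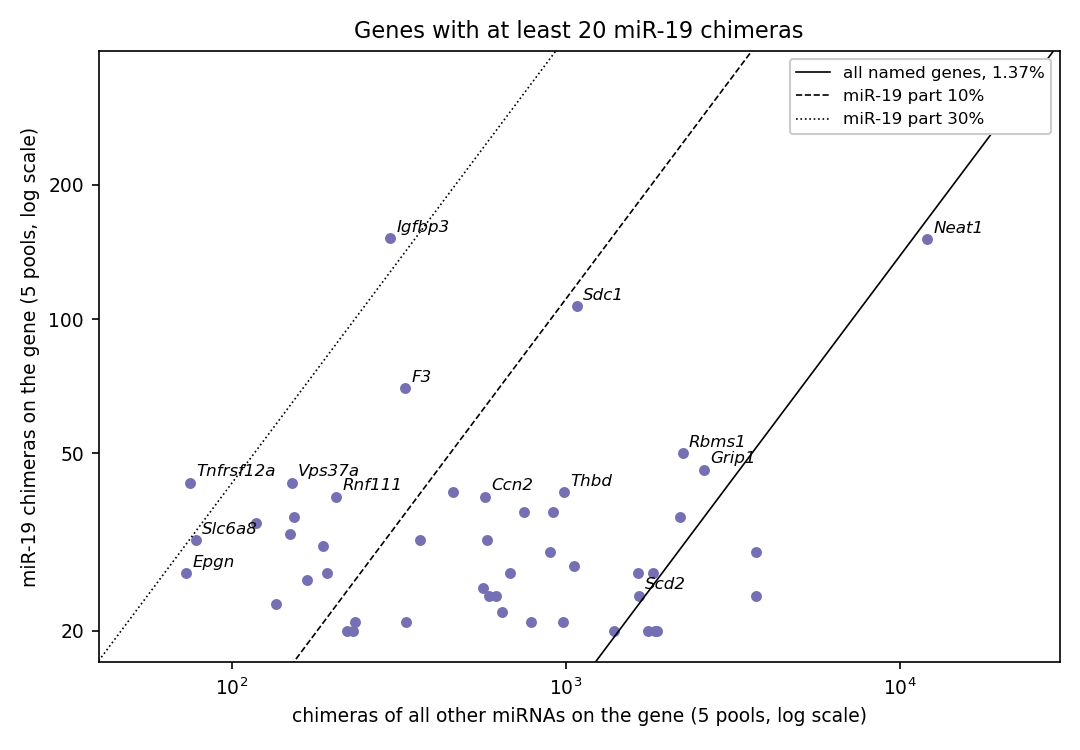
Each point is 1 of the 48 genes with at least 20 miR-19 chimeras over the 5 pools, placed by chimeras of all other miRNAs and of miR-19 on it (both log scales), with lines of equal miR-19 part. Tnfrsf12a, Igfbp3, Slc6a8 and Epgn lie near or above the 30% line, while Neat1 lies by the line of 1.37% that holds over all named genes.

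The 20 genes ranked first by their share averaged over pools held others with smaller counts. Thbs1, the matrix protein thrombospondin-1, had 41 chimeras (7, 3, 9, 10 and 12), Ccn2, a matrix-associated protein also called connective tissue growth factor, 40 (8, 4, 6, 14 and 8), and Thbd, the anticoagulant receptor thrombomodulin, 41 (2, 1, 19, 4 and 15). Rbms1, an RNA-binding protein, had 50, Grip1, a scaffold protein, 46, and Atxn1, ataxin-1, 37. Scd2, a fatty acid desaturase, had 24, Rnf11, a ubiquitin ligase adaptor, 23, Anxa1, annexin A1, 22, and Met, the receptor of hepatocyte growth factor, 21. Maml3, a coactivator of Notch, had 16, Sipa1l1 12 and Gltp, the glycolipid transfer protein, 8. The miR-19 part was 1.74% (1.28 to 2.32) on Grip1 and 1.43% (0.921 to 2.13) on Scd2. On Maml3 it was 1.30% (0.746 to 2.11) and on Sipa1l1 1.83% (0.949 to 3.17). These intervals include the 1.37% over all named genes, so these genes were not set apart by miR-19. The other genes of this paragraph had their whole interval above 1.37%. The mean over pools weights the shallow set 1 pools as much as the others, which places genes such as Gltp here: 6 of its 8 chimeras were from the set 1 DKO pool.

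On many of these genes, though not on all, the miR-19 targets gathered in stacked sites, places where at least 5 of them overlapped on 1 strand. Of the 48 genes with at least 20 miR-19 chimeras, 38 had such a site; Grip1 (46 chimeras) had none, nor had Maml3 or Sipa1l1, and the deepest of the 5 sites on Neat1 held 12 of its 151 chimeras (7.95%). There were 223 stacked sites among 8542 groups of overlapping targets, and they held 2669 chimeras (21.5% of all). Their median width was 62 bases (23 to 158), 16 were seen in all 5 pools and 54 in 4. On 1 named gene lay 196 of the sites, in 179 genes. Of the 196, 81 had their midpoint within 1000 bases of the 3′ end of the gene and 140 within 3000.

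The deepest site lay on Igfbp3 at chr11:7207430-7207508 (mm10, minus strand, the strand of the gene), 1383 bases from the 3′ end. It held 149 of the gene's 152 miR-19 chimeras, 32, 4, 31, 52 and 30 by pool. Other miRNAs made 148 chimeras there, so that miR-19 had 50.2% (44.3 to 56.0) of the site, and miR-31-5p followed with 21, miR-21a-5p with 17 and miR-24-3p with 16. On Sdc1 1 site at chr12:8792222-8792372 (plus strand, 1419 bases from the 3′ end) held 100 chimeras, 51 of them from the induced pool and 35 from the uninduced one. There miR-19 made 73.0% (64.7 to 80.2) of all chimeras, and none of the other miRNAs made more than 3.

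F3 carried a pair of sites with different company. The deeper one, at chr3:121734414-121734523 (plus strand, 584 bases from the 3′ end), held 51 miR-19 chimeras beside 41 of miR-125b-5p and 8 of miR-126a-3p, with 1 from the whole miR-17 seed family. The other, at chr3:121734708-121734803 (297 bases from the 3′ end), held 16 miR-19 chimeras beside 35 of miR-20a-5p, 26 of miR-17-5p, 14 of miR-93-5p and 13 of miR-106b-5p. Chimeras of the cluster mates miR-17-5p and miR-20a-5p thus lay beside those of miR-19 chiefly at the second of these sites.

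Vps37a showed another kind of company. Its site at chr8:40546418-40546506 (plus strand) held 42 miR-19 chimeras beside 27 of miR-301a-3p, 14 of miR-669b-5p and 18 of the miR-17 seed family. miR-130a-3p and miR-301a-3p belong to a family whose seed holds the same GUGCAA as that of miR-19, moved by 1 base: it spans bases 2 to 7 of miR-19 and 3 to 8 of miR-130a. Their sequences (RefSeq, GRCm38.p6) are shown for that overlap, with the seed in capitals.
miR-130a-3p: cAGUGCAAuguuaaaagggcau
miR-301a-3p: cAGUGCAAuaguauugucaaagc
Over the 196 sites, the 4 names of this family made 6.09% (5.53 to 6.68) of the chimeras of other miRNAs, against 0.822% of other miRNAs' chimeras over all named genes, and 75 sites held at least 1. The comparison with this family was chosen after the sites were seen.

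**Figure D3:**
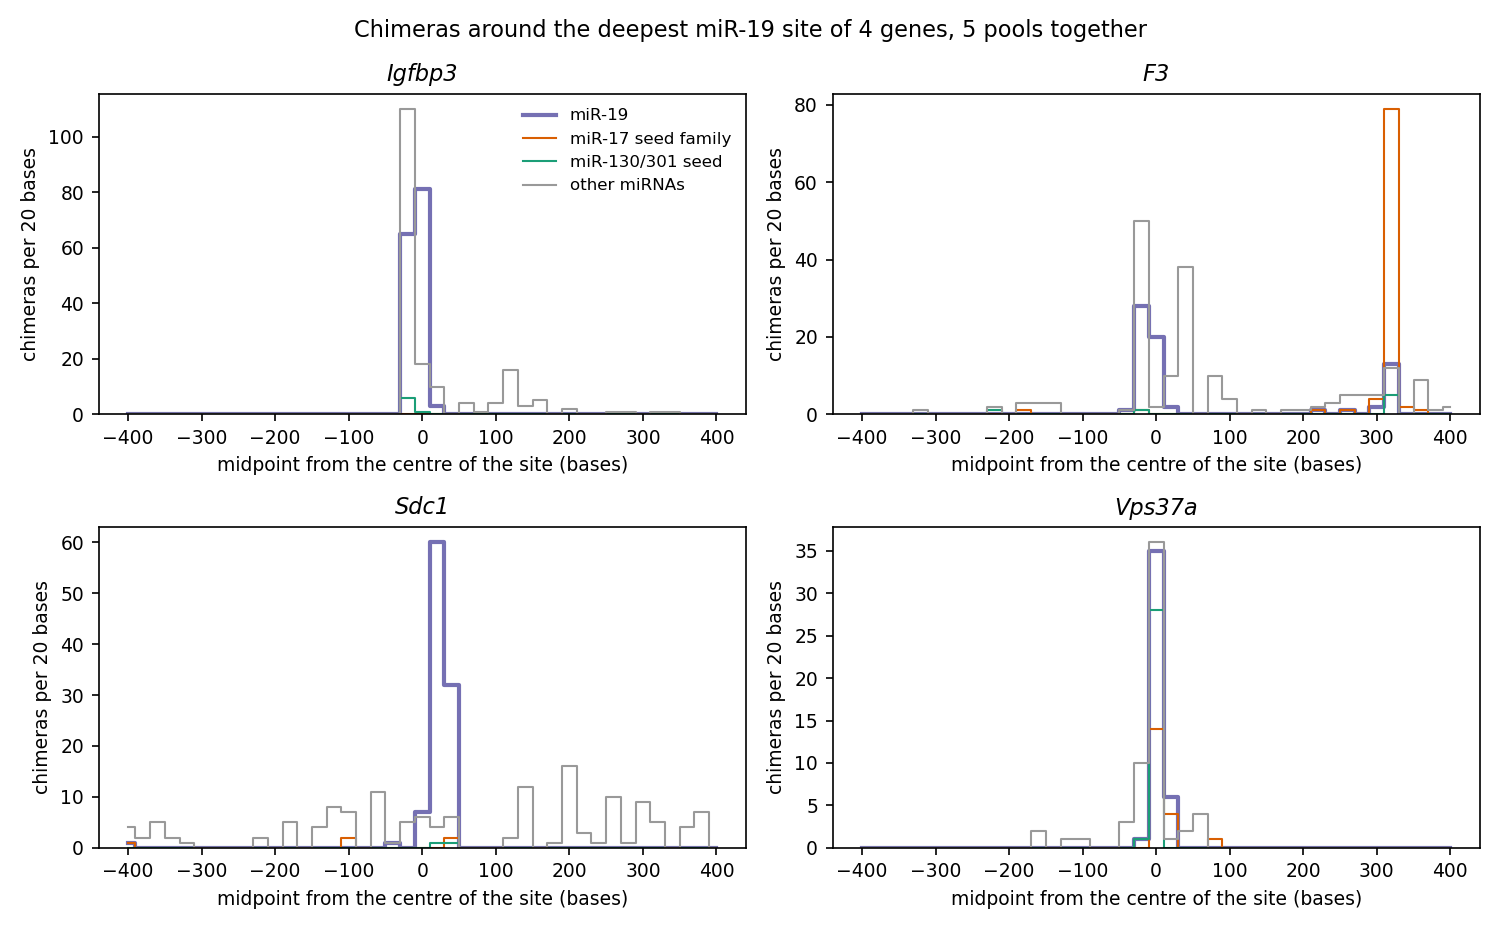
Chimeras per 20 bases (5 pools together) against the distance of the target's midpoint from the centre of the deepest miR-19 site of 4 genes, in the direction of transcription, for miR-19, the miR-17 seed family, the miR-130 and miR-301 seed and all other miRNAs. On F3 the miR-17 seed family peaks downstream, in the bin centred 320 bases from the centre of the deepest miR-19 site, and on Vps37a miR-19 and the miR-130 and miR-301 seed peak in the same place.

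The miR-17 seed family made 10.3% (9.62 to 11.1) of other miRNAs' chimeras at the 196 sites, against 3.53% over all named genes, and was present at 61. Its 711 chimeras there were unevenly spread: 1 Col17a1 site held 42 of miR-20a-5p and 1 Csnk1a1 site 47 of miR-17-5p. Some miRNAs outside the cluster were raised as much, with miR-210-3p at 6.11, miR-467d-5p at 3.71 and miR-30c-5p at 3.41 times the level over all named genes. Of the 157 chimeras of miR-30c-5p there, 92 and 28 lay on the 2 stacked sites of Ccn2. Others were lower, such as miR-31-5p (0.469 times) and miR-24-3p (0.523 times). miR-18a-5p made 1.50% (1.22 to 1.81) against 0.651%, and 58 of its 103 chimeras there were on 1 site of Ccn2, at chr10:24598610-24598651 (plus strand, 53 bases from the 3′ end), which held 27 of miR-19. miR-92a-3p made 0.363% (0.235 to 0.536) against 0.680%, and the miR-200 family 4.87% (4.37 to 5.40) against 6.52%, so these were below their levels over all named genes. Of the 179 genes with a miR-19 stacked site, 48 (26.8%) had one of the miR-17 seed family as well, which is 9.01% of that family's 533 genes. For the miR-130 and miR-301 seed it was 27 genes (15.1% and 27.3% of its 99), for miR-92a-3p 13 (7.26% and 11.9%) and for miR-18a-5p 7 (3.91% and 9.72%). For scale, 6382 named genes had at least 20 chimeras of any miRNA. Genes with many chimeras can hold stacked sites of several miRNAs. These overlaps were not compared with genes of like depth, so they do not show shared targeting beyond depth.

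At several of the remaining deep sites miR-19 made most of the chimeras. On Rnf111 (chr9:70426673-70426751, minus strand) miR-19 made 38 of 48 chimeras (79.2%), on Rhob (chr12:8498084-8498197, minus strand) 35 chimeras beside 11 of others (76.1%), on Arpc1a (chr5:145107052-145107129, plus strand) 35 beside 14 and on Rbms1 (chr2:60752846-60752927, minus strand) 34 beside 20. On Tnfrsf12a (chr17:23675679-23675793, minus strand) miR-19 had 41 beside 32. By contrast, on Thbd (chr2:148404521-148404598, minus strand) the 32 of miR-19 stood beside 86 of others, 51 of them miR-21a-5p. On Thbs1 (chr2:118126821-118126917, plus strand) miR-19 made 33 beside 41 of others, 17 of them miR-21a-5p.

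The division between miR-19a and miR-19b varied from site to site. Over the 5 pools miR-19a made 25.6% of miR-19 chimeras, and the median over the 196 sites was 22.2%. The whole interval lay above 25.6% at 5 of the 196 sites and below it at 2. Fam162a (16 of 31 chimeras miR-19a, 33.1 to 69.8%) and Tmbim6 (12 of 21, 34.0 to 78.2%) were the deepest of the high ones, with Fads3, Strn3 and Pik3r3 among the smaller. Ccn2 (2 of 27, 0.910 to 24.3%) and Slc6a8 (3 of 32, 1.98 to 25.0%) were the low ones. With 196 sites looked at, some intervals fall outside by counting error alone, and these sites were singled out after their values were seen.

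**Figure D4:**
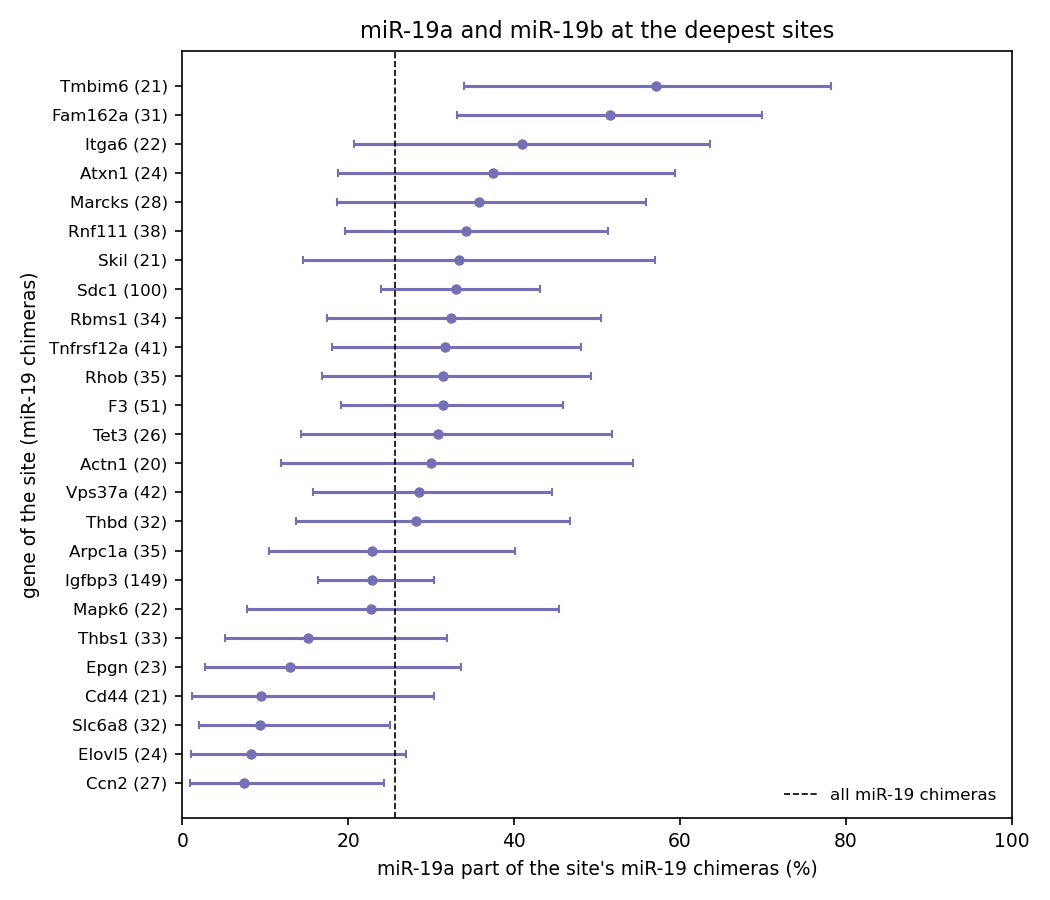
Part of miR-19a (percent) at the 25 sites with at least 20 miR-19 chimeras on 1 named gene, with exact 95% counting intervals and the number of miR-19 chimeras in parentheses; the dashed line is 25.6%, the part over all miR-19 chimeras. Fam162a and Tmbim6 lie to the right of it with their whole interval, and Ccn2 and Slc6a8 to the left.

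Few genes were deep enough to compare between pools (at least 20 miR-19 chimeras in the compared pools). In set 1 it was Igfbp3 alone, at 32 chimeras in control and 4 in DKO, with a ratio of shares of 0.317 (0.0814 to 0.893); with 1 gene compared, 100% were called lower and 0% higher, which gives no background. In the set 2 DKO comparison 10 genes were deep enough, of which 20% were higher and 20% lower by the interval, with a median ratio of 0.748. Ccn2 (6 uninduced, 14 DKO) had a ratio of 3.31 (1.19 to 10.5) and Igfbp3 (31 and 54) one of 2.47 (1.56 to 3.97). Thbd (19 and 4) was at 0.298 (0.0738 to 0.897) and Sdc1 (37 and 10) at 0.383 (0.170 to 0.785). In the induced comparison F3 (12 uninduced, 49 induced; 2.83, 1.48 to 5.85) was the 1 gene of 31 (3.23%) whose whole interval lay above 1, 0% had it below 1, and the median ratio was 0.924.

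Chimeras of all other miRNAs on the same genes moved the same way. On Igfbp3 their ratio was 0.489 (0.233 to 0.929) in set 1 and 3.59 (2.55 to 5.13) in the set 2 DKO comparison. On Ccn2 it was 7.38 (5.45 to 10.2), on Thbd 0.424 (0.334 to 0.534) and on Sdc1 0.717 (0.594 to 0.862). On F3 it was 1.55 (1.20 to 2.01) for induced over uninduced. The ratios of miR-19 and of the other miRNAs had overlapping intervals on each of these genes. More chimeras of every kind on a gene and more ligation by miR-19 cannot be told apart without the level of the messenger RNA, which was not analysed here.

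**Figure D5:**
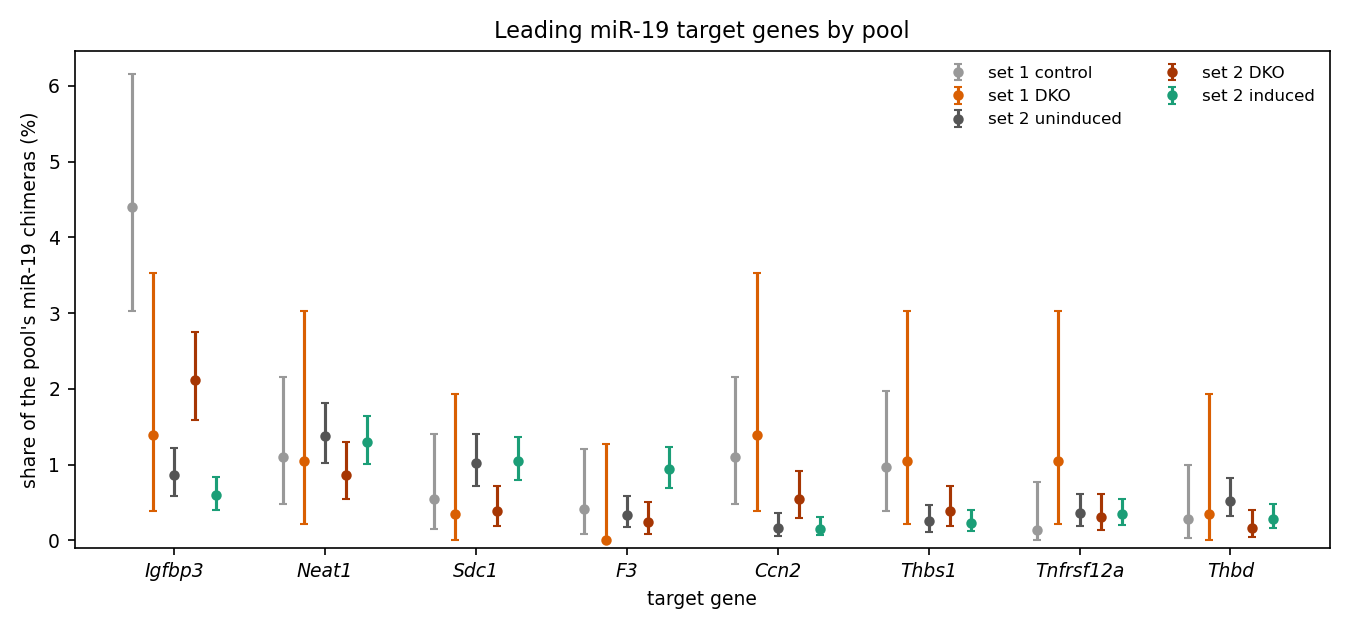
Share of each pool's miR-19 chimeras (percent) on 8 leading target genes, with exact 95% counting intervals. Igfbp3 is high in the set 1 control (4.40%) and the set 2 DKO (2.11%), and F3 in the induced pool (0.938%) against the uninduced pool (0.331%).

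The gene lists were read by the part of members with at least 20 chimeras of any miRNA that had 2 or more of miR-19; over all named genes this was 1859 of 6382 (29.1%), with a median miR-19 part of 0.423%. Of the commonly cited miR-19 targets 18 of 24 (75%) had 2 or more, with a median part of 3.32%. The leading ones were Thbs1, Ccn2 and Atxn1, followed by Rhob (36), Itga6 (25), Rnf11 (23), Tnfaip3 (11) and Klf10 (10). Bmpr2, a BMP receptor on this list, had no miR-19 chimera beside 13 of the miR-17 seed family. The list's share of miR-19 chimeras was 2.75%, 5.23%, 2.32%, 2.35% and 1.80% by pool.

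In PI3K and Akt signalling 10 of 22 members (45.5%) had 2 or more, with a median part of 1.12%. Rictor, a core subunit of the mTORC2 kinase complex, had 12 chimeras, 9 of them in the induced pool. That pool also held 96 of the 230 chimeras of other miRNAs on Rictor. Foxo3, a transcription factor that Akt inhibits, had 6. Pik3r3, a regulatory subunit of PI3K, had 6, all at 1 site where 5 of the 6 were miR-19a. The miR-19 part was 4.96% (2.59 to 8.50) on Rictor and 15.8% (6.02 to 31.3) on Pik3r3. On Foxo3 it was 0.773% (0.284 to 1.68), an interval that includes the 1.37% over all named genes. In TGF-beta and BMP signalling it was 10 of 20 (50%; median part 0.672%), led by the receptors Acvr1 (9), Acvr1b (7) and Bmpr1a (6). Among apoptosis and cell cycle brakes it was 9 of 16 (median part 1.45%), led by the cyclins Ccnd2 (12) and Ccnd1 (10), which drive the cycle rather than brake it, and by the CDK inhibitor Cdkn1b (6). These counts are low, and no member of the 3 lists was compared between pools. Genes with more chimeras of any miRNA reach 2 of miR-19 more readily. The lists were not matched to other genes by depth, so these percentages do not show more targeting beyond depth. On Acvr1b, Bmpr1a and Cdkn1b the interval of the miR-19 part included the 1.37% over all named genes. On Acvr1, Ccnd2 and Ccnd1 it lay above that value.

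Of the keratinocyte genes 17 of 20 (85%) had 2 or more, with a median part of 1.32%, against a median of 0.423% over all named genes. The part over all chimeras on named genes, which weights genes by depth, was 1.37%. Itga6, the alpha 6 integrin of hemidesmosomes, had 25 chimeras, 22 of them at 1 site (chr2:71856171-71856228, plus strand), with pool counts of 0, 1, 12, 2 and 10. Dsg3, a desmosomal cadherin, had 24 (1, 0, 9, 2 and 12) and Cdh1, E-cadherin, 11, of which 8 were in the induced pool. That pool, the deepest, also held 186 of the 500 chimeras of other miRNAs on Cdh1. Members of a list were not matched to other genes by depth.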

How the data were processed

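The authors' deposited files list 1 chimeric read per line for each of 5 pools: the start and end of the target part on mm10, its strand, a barcode and the miRNA. These positions are values of another kind, neither counts nor normalised, and per the file headers no column names a library. The tools named, per the submitters' processing notes, are Novoalign, cutadapt and bedtools, with the build mm10 and no versions; how chimeras were called and duplicates collapsed is not stated there. Per the labels' protocols, cells were irradiated with 300 mJ/cm2 at 254 nm, RNA was cut lightly with RNase A and T1, and the ligation was done on the Ago2 beads.

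From these lines, reads were counted per miRNA and pool, and chimeras (each position, strand and miRNA once) per gene, by the midpoint of the target in the span of RefSeq genes (GRCm38.p6). Targets that overlapped on 1 strand were joined, and a stacked site held at least 5. The miR-17 seed family is miR-17-5p, miR-20a-5p, miR-20b-5p, miR-93-5p, miR-106a-5p and miR-106b-5p. Shares have exact Clopper-Pearson 95% intervals and ratios of shares conditional exact intervals; a ratio was called where its interval excluded 1. With 1 pool per group there were no replicates and no test. For a share with no count, the limit given is the upper bound of its exact interval.

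Named genes were the 20 with the highest mean share over pools, the 10 with the highest miR-19 part among those with at least 20 miR-19 chimeras, those of the 10 deepest sites, in each gene list the first 3 by miR-19 chimeras if they had 5 or more, and up to 3 genes per comparison and direction; mitochondrial, ribosomal and structured RNA was counted and not named. Ddx3y, Dusp6, Mindy3, LOC115488002, Tmbim6, Fads3, Strn3, Tnfaip3, Klf10, Socs3, Bmpr2, Col17a1 and Csnk1a1 are outside this rule and were named after their values were seen. The members and lists were chosen with earlier results of these data known. Seed matches at targets outside the promoter windows, and untranslated regions, were not analysed here because no genome was used. The interval and joining code was tested on simulated data. Python 3.11.15, numpy 2.4.6, pandas 2.3.3, scipy 1.17.1 and matplotlib 3.10.9 were used.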

Additional observations from a re-analysis of the deposited data

Results flagged for a closer look

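The share of miR-19 chimeras on Igfbp3 moved in opposite directions in the DKO comparisons of the 2 sets. It was 0.317 times the control share in set 1 (4 and 32 chimeras; 0.0814 to 0.893) and 2.47 times the uninduced share in set 2 (54 and 31 chimeras; 1.56 to 3.97). The difference between the sets was not tested, since each group was 1 pool, and set, sequencing run and kind of control cannot be told apart. Chimeras of all other miRNAs on Igfbp3 had ratios of 0.489 in set 1 and 3.59 in set 2.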

How the results depend on the processing

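No paired analysis was possible because the libraries of a group are pooled and no column carries a replicate number; for the same reason no library could be left out. With each position counted once the miR-19 shares were 0.619% and 0.758% (set 1 control and DKO) and 1.40%, 1.41% and 1.51% (uninduced, set 2 DKO, induced). Without the 9 miRNAs overrepresented in set 1 they were 0.814%, 0.909%, 1.29% (uninduced) and 1.41% (induced), without reads shared within the set 1.30%, 1.37% and 1.41% in set 2, and without the miR-200 family 1.34% (uninduced) and 1.50% (induced). The miR-19 ratio was 1.12 in set 1 without the 9 miRNAs and 0.985 in the set 2 DKO comparison without the miR-200 family; both follow from the changed totals. For miR-19a-3p alone the ratios were 0.842, 0.831 and 1.00 (induced), and for miR-19b-3p alone 1.14 in the set 2 DKO comparison.

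Of all miRNAs, 67 were lower in set 1 with at least 50 reads and 69 with each position counted once, which left 19 higher in the induced comparison. The main rule gave 113 of 562 lower in set 1 and 34 of 421 higher in the induced comparison. These settings also change how many miRNAs are compared, so smaller counts need not mean fewer changes. Under a 2-fold minimum, 36 were higher in set 1, 42 higher and 41 lower in the set 2 DKO comparison, and 11 higher and 6 lower in the induced one. The main rule compared 562, 371 and 421 miRNAs in these comparisons. Genes with at least 1 chimera numbered 470, 180, 1797, 1452 and 2335 by pool, and with at least 5 they numbered 6, 2, 84, 45 and 175. Stacked sites numbered 492 with at least 3 chimeras and 87 with at least 10, 143 without the uninduced pool and 108 without the induced pool. The other alternatives run kept these counts within 1.5 times. The called gene ratios kept their direction and their side of 1 in all alternatives run for them. Seed matches in targets lengthened by 20 bases were not run for want of a genome; the promoter windows, the miR-130 and miR-301 family and the other miRNAs' ratios were added after seeing the data. Depth limits set 1 most: its DKO pool held 287 miR-19 chimeras.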

Other observations

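Of the miR-19 chimeras, 70 had their target in a miRNA gene, 6 and 2 in the set 1 control and DKO pools and 19, 26 and 17 in the uninduced, set 2 DKO and induced pools. The mature sequences they met most were miR-31-5p (7 chimeras), miR-21a-5p (5) and miR-27a-3p (4), a few chimeras each.

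Within the span of the miR-17-92 hairpins, the members' own locus, lay 27 miR-19 chimeras, all on the plus strand and 21 of them of miR-19a-3p. They numbered 10, 0, 5, 7 and 5 by pool. In 16 of them the target started within 2 bases after the end of the mature miR-19a-3p arm, so that miRNA and target are neighbours in the precursor; 1 lay in the same way after miR-19b-3p of Mir19b-1.

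The Gltp site at chr5:114675888-114675933 (minus strand) held 7 miR-19 chimeras, 6 from the set 1 DKO pool and 1 from the set 1 control pool. None was of miR-19a-3p, and no other miRNA had a chimera there. Such traits were not particular to it: 11 of the 196 sites held no other miRNA, and 50 of the 223 stacked sites were seen in 2 pools. Socs3, an inhibitor of cytokine signalling, had 5 miR-19 chimeras beside 2 of other miRNAs. Ddx3y had 20 miR-19 chimeras, numbering 1, 0, 6, 1 and 12 by pool.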
